A study of Homo sapiens with 6 samples.

Results

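The genes described here carry glucose into the cell and break it down to lactate: 10 genes, of 18417 with a probe set of their own on the array. They are SLC2A1, HK1, HK2, PFKL, PFKM, PFKP, ALDOA, PGK1, PKM and LDHA, each taken as the probe set that carries that gene symbol alone. Where a gene had several such probe sets the one of highest mean was to be used, but all 10 had 1. The set was chosen by measured values of these arrays, namely that PFKL was higher after NRF3 siRNA in both lines tested, and SLC2A1 was lower in HCT116-p53KO cells. Those differences are therefore given as descriptions and support nothing.

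Total RNA, 100 ng per sample, was profiled on 6 Affymetrix arrays with 1 array in each group. Cells of the human colon cancer line HCT116 and of HCT116-p53KO, its p53-deficient derivative, were transfected with control siRNA or with siRNA against NRF3, and RNA was taken 48 h later. H1299, which comes from a human non-small cell lung carcinoma, was transfected with a plasmid for GFP or for NRF3 and selected with G-418 for stable expression. The HCT116 lines grew in DMEM and H1299 in RPMI-1640, so line and medium cannot be told apart. The siRNA sequences, the promoter of the plasmids and whether a derived line was a clone or a pool were not given in the sources used here. NRF3, encoded by NFE2L3, is a CNC-family transcription factor related to NRF2. With 1 array per group there is no replicate check and no test of any difference within a line, and p-values are not given. Values are RMA log2 intensities, where a difference of 1 is 2-fold. Gene counts use differences of at least 1.5-fold among expressed genes, those with a log2 intensity of at least 6 on 1 or both of the 2 arrays compared. All 10 genes met that level on all 6 arrays.

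Glycolysis converts glucose to pyruvate in the cytosol. Facilitative transporters of the GLUT family bring glucose in, hexokinases trap it as glucose 6-phosphate, and phosphofructokinase makes the committed step to fructose 1,6-bisphosphate. Aldolase, phosphoglycerate kinase and pyruvate kinase carry the carbon to pyruvate with a gain of ATP, and lactate dehydrogenase turns pyruvate into lactate, which regenerates NAD+. Tumour cells often run this route at a high rate even with oxygen present, and p53, HIF-1 and MYC are all known to influence it.

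The promoter letters of 4 genes are shown because PFKL and SLC2A1 lead the differences and because PKM and LDHA, at the end of the route, carry the motifs searched. Each is the 250 bases before the annotated gene start from RefSeq (GRCh38.p14), written 5′ to 3′ on the strand of the gene. Capitals mark TGACNNNGC, the core of the antioxidant response element that CNC factors bind with small MAF partners, and ACGTG, the core of the hypoxia response element, on either strand.
PFKL promoter, chr21:44299803-44300052, plus strand: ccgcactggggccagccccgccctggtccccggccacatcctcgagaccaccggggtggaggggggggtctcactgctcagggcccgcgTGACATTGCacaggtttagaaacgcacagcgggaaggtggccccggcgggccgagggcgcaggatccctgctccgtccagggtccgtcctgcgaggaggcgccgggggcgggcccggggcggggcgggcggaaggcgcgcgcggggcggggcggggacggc
SLC2A1 promoter, chr1:42958869-42959118, minus strand: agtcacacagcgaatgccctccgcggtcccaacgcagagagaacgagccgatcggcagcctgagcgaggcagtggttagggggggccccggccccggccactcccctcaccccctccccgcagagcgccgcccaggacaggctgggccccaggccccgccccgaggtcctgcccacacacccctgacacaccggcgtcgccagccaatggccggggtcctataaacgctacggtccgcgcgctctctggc
PKM promoter, chr15:72231191-72231440, minus strand: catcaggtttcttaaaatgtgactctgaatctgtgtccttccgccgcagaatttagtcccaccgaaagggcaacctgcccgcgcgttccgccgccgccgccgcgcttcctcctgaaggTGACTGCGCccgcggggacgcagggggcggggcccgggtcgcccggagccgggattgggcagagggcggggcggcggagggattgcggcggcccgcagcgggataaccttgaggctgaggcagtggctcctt
LDHA promoter, chr11:18394313-18394562, plus strand: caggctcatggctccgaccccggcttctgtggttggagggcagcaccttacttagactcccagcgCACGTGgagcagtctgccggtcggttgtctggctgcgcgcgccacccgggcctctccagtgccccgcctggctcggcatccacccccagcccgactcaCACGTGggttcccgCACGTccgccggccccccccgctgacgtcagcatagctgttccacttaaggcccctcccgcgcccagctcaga
In PFKL the match to TGACNNNGC began at position -161 relative to the start, and in PKM at position -132. SLC2A1 held neither motif in these letters. The first LDHA window held 5 matches to ACGTG counted over both strands, 4 of them in 2 copies of the palindromic E-box CACGTG, which contains ACGTG on each strand. Windows that run 50 bases past the start were searched too. TGACNNNGC was found in 3 of the 29 windows of the 10 genes, in HK1, PFKL and PKM. It was found in 13.3% of 35116 windows of all genes. ACGTG was found in 10 of 29, in HK2, PFKP, LDHA, PFKM, ALDOA and PGK1, against 21.4%. CACGTG was found in 3 of 29, in HK2, LDHA and ALDOA, against 7.26%. Windows of 1 gene can overlap, and a match is a description of letters, not of binding.

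The labels were checked first at the genes they name. NFE2L3 was 5.11-fold lower after NRF3 siRNA in HCT116, 2.94-fold lower in HCT116-p53KO and 4.06-fold higher on the NRF3 array of H1299. All 9 p53 targets measured, CDKN1A and FAS among them, were lower in HCT116-p53KO than in HCT116 with control siRNA, with a median difference of -0.70. Of 10 colon epithelial markers, the adhesion genes EPCAM and CDH1 lay between 9.00 and 11.42 on the HCT116-family arrays, but VIL1 and CDH17 were under 6 on all 4 and GPA33 on 3 of them. In H1299, 5 of the 6 lung markers measured, NKX2-1, SFTPB, SFTPC, NAPSA and SCGB1A1, were under 6 on both arrays, and SFTPD was at most 6.15. On the HCT116-family arrays NKX2-1 and SFTPB were under 6 and SFTPC reached at most 6.09. The lung markers SFTPD (6.86 to 7.14), SCGB1A1 (6.58 to 6.66) and NAPSA (6.15 to 6.59) were above 6 on those colon cancer arrays. A level of 6 or more therefore does not by itself show expression. Of the colon list, EPCAM and CDH1 were under 6 in H1299. The keratins KRT8 (10.10 and 10.30) and KRT18 (10.99 and 11.13) and the intestinal factors CDX1 (6.85 and 6.89) and CDX2 (6.73 and 6.62) were above it. Of 4 mesenchymal genes in H1299, VIM was at 12.45 and 12.08, CDH2 at 8.20 and 9.11, ZEB1 at 8.00 and 7.97, and FN1 at 7.07 and 6.30. On the HCT116-family arrays VIM lay at 6.94 to 7.22, CDH2 at 5.61 to 5.73, ZEB1 at 6.68 to 7.20 and FN1 at 6.40 to 7.02. FN1 levels as deposited overlapped between H1299 and the HCT116 family. Whether FN1 set H1299 apart cannot be told from them, since the scales differ. Median intensity lay near 7 in the HCT116 family and near 6 in H1299, so these sets were on different scales. The cut of 6 kept fewer genes in H1299, where 59.8% (GFP) and 58.7% (NRF3) of genes reached it. On the HCT116-family arrays 72.6% to 75.2% did, so counts of expressed genes are not alike between the sets. Deposited levels of one set are printed beside those of the other without a fold between them.

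Glucose uptake came first. SLC2A1 encodes GLUT1, the widely expressed glucose transporter. Its level was 12.56 in HCT116 under control siRNA, 11.99 there under NRF3 siRNA, 10.47 and 10.35 in HCT116-p53KO, and 9.44 with GFP and 10.18 with NRF3 in H1299. Both HCT116-p53KO arrays lay below both HCT116 arrays, by 4.28-fold with control siRNA and by 3.13-fold with NRF3 siRNA. The difference of -2.10 between the control arrays was the 27th lowest of 13827 expressed genes, in the contrast that put SLC2A1 forward. In such bulk RNA, fewer cells that carry a transcript and less of it per cell cannot be told apart. After NRF3 siRNA the difference was -0.57 in HCT116, just short of 1.5-fold, and -0.12 in HCT116-p53KO. In H1299 with NRF3 it was 0.74, or 1.67-fold higher. SLC2A1 was thus lower on both arrays with less NRF3 and higher on the array with more, with the siRNA difference in HCT116-p53KO smaller than the median absolute difference of all expressed genes there, 0.17.

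**Figure D1:**
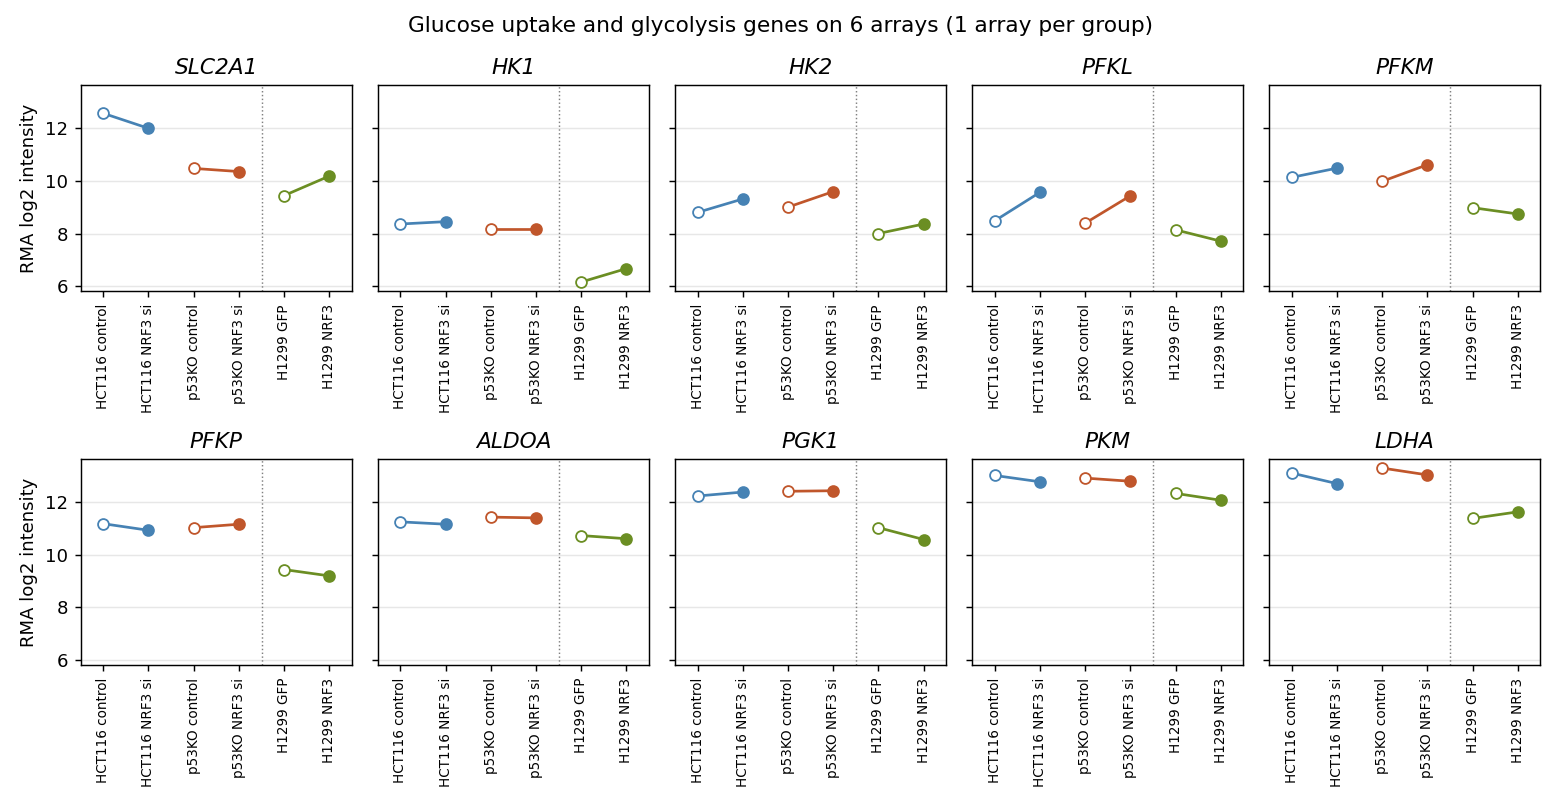
RMA log2 intensity (vertical axis) of the 10 genes on 6 arrays, with open circles for control siRNA or GFP, filled circles for NRF3 siRNA or the NRF3 plasmid, and lines joining the arrays of 1 line. The dotted line parts the HCT116-family arrays from the H1299 arrays, which are on another scale; SLC2A1 steps from 12.56 and 11.99 down to 10.47 and 10.35 between the HCT116 lines, and PFKL is higher on both NRF3 siRNA arrays, at 9.56 and 9.43.

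The hexokinases phosphorylate glucose on entry. HK2, the inducible isoform of many tumours, was at 8.80 and 9.31 in HCT116 with control and NRF3 siRNA, at 9.00 and 9.59 in HCT116-p53KO, and at 8.00 and 8.36 in H1299 with GFP and NRF3. It was higher on the second array of every pair, by 0.51, 0.59 and 0.36, so the direction was the same whether NRF3 was lowered or raised. HK1, the broadly expressed isoform, was at 8.36 and 8.45 in HCT116 and at 8.16 on both HCT116-p53KO arrays. In H1299 it was at 6.16 and 6.67, low on the scale, a difference of 0.51. The siRNA differences of HK1 were 0.09 and -0.01, so of these isoforms HK2 showed the wider differences after siRNA.

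Phosphofructokinase, the main control point of glycolysis, is built from liver, muscle and platelet subunits, encoded by PFKL, PFKM and PFKP. PFKL was at 8.48 under control siRNA and 9.56 under NRF3 siRNA in HCT116, at 8.39 and 9.43 in HCT116-p53KO, and at 8.14 with GFP and 7.71 with NRF3 in H1299. Both NRF3 siRNA arrays lay above both control siRNA arrays, by 2.12-fold in HCT116 and 2.06-fold in HCT116-p53KO. These were the 20th highest difference of 14034 expressed genes and the 27th highest of 13680, in the contrasts that put PFKL forward. In H1299, a pair that the rule did not name, PFKL was lower with NRF3, by 1.34-fold, and 18.27% of 11304 expressed genes differed by as much. The members were chosen with earlier results of these data known, so this pair is no independent check.

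PFKM was at 10.13 and 10.48 in HCT116, at 9.98 and 10.61 in HCT116-p53KO, and at 8.98 and 8.74 in H1299. Like PFKL it was higher on both NRF3 siRNA arrays, by 1.27-fold and 1.54-fold, and lower on the NRF3 array of H1299, by 1.18-fold. PFKP was at 11.17 and 10.92 in HCT116, at 11.02 and 11.15 in HCT116-p53KO, and at 9.43 and 9.19 in H1299. Its siRNA differences had opposite signs, -0.25 and 0.13, so the 3 subunit genes did not share a direction in HCT116. PFKM overlaps SENP1, a SUMO protease gene, in the RefSeq annotation. SENP1 differed the other way after siRNA, by -0.64 in HCT116 and -0.17 in HCT116-p53KO.

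**Figure D2:**
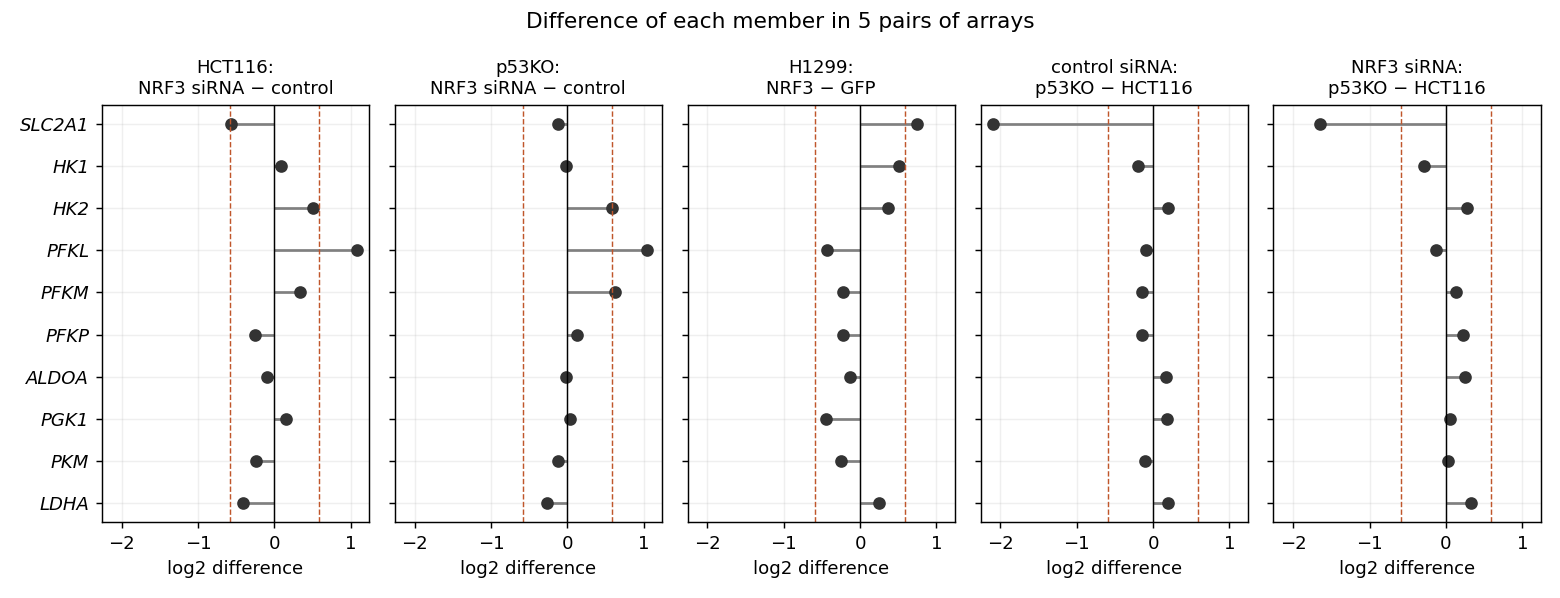
Log2 difference (horizontal axis) of each of the 10 genes in 5 pairs of arrays, with dashed lines at 1.5-fold. PFKL stands out in both siRNA pairs, at 1.08 and 1.04, and SLC2A1 in both pairs between the HCT116 lines, at -2.10 and -1.65; the pairs share arrays, so panels are not independent.

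The 4 genes of enzymes downstream of phosphofructokinase differed by less than 1.5-fold in all 5 pairs. ALDOA, aldolase A, was at 11.24 and 11.15 in HCT116, at 11.42 and 11.39 in HCT116-p53KO and at 10.72 and 10.60 in H1299. PGK1, the first ATP-yielding kinase of the route, was at 12.22 and 12.37 in HCT116, at 12.40 and 12.42 in HCT116-p53KO, and at 11.02 and 10.57 in H1299. For PGK1 the 1.37-fold lower level with NRF3 in H1299 was its widest difference over the 5 pairs. No difference of ALDOA went past 0.25 in size in any of them. PKM, the pyruvate kinase gene whose splice forms the probe set does not part, was at 13.00 and 12.76 in HCT116, at 12.90 and 12.78 in HCT116-p53KO, and at 12.32 and 12.06 in H1299. It was lower on the second array of each of these pairs, by 0.24, 0.12 and 0.25 in size, or at most 1.19-fold.

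LDHA, the lactate dehydrogenase A chain, was at 13.09 and 12.69 in HCT116, at 13.28 and 13.02 in HCT116-p53KO, and at 11.37 and 11.62 in H1299. It was lower on both NRF3 siRNA arrays, by 1.33-fold and 1.20-fold, and higher on the NRF3 array of H1299, by 1.19-fold, the same order of signs as SLC2A1. LDHA and PKM had levels at or above those of at least 98.8% of genes on every array. ALDOA, PGK1, PKM and LDHA have processed pseudogenes of closely similar sequence, so their probe signals may not come from these genes alone.

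In HCT116, 1 of the 10 genes was at least 1.5-fold higher after NRF3 siRNA, PFKL, where 2.71% of all expressed genes were, and 0 of 10 were at least 1.5-fold lower, where 6.02% were. The genes split evenly by sign, 5 higher and 5 lower, and their median difference was 0.00 beside 0.01 over all expressed genes. In HCT116-p53KO, 3 of 10 were at least 1.5-fold higher, PFKL, PFKM and HK2, against 3.63% of expressed genes, and 0 of 10 were lower by that much, against 2.38%. The median was 0.01 beside 0.00 over all. HK2 stood at the threshold there, and dropped out when quantile normalization was repeated, over 6 arrays or within each set, which left PFKL and PFKM. With loess correction of the array pair the count was 1, PFKL. In HCT116 the count became 3 with quantile normalization repeated over 6 arrays, which brought HK2 and SLC2A1 past 1.5-fold. The rule that chose the genes used both of these contrasts, so nothing is read from these counts.

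The siRNA differences of both lines can be set side by side without shared arrays. Of the 10 genes, PFKL, HK2, PFKM and PGK1 were higher in both lines, SLC2A1, LDHA, PKM and ALDOA were lower in both, and PFKP and HK1 had opposite signs. Some of these differences were small. PGK1 (0.15 and 0.03) and ALDOA (-0.09 and -0.02) stayed under the median absolute differences of all expressed genes, 0.21 and 0.17. In HCT116-p53KO, SLC2A1 and PKM (both -0.12) were under 0.17 too. The share of all expressed genes with the same sign in both lines was not counted, so nothing is read from the signs. Subtracting the HCT116-p53KO difference from the HCT116 one gave values from -0.45 for SLC2A1 and -0.39 for PFKP to 0.12 for PGK1, with 0.04 for PFKL. None of the 10 reached 1.5-fold either way, where 2.15% of 13566 genes were above and 4.18% below. No test of this difference could be made with 4 arrays.

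**Figure D3:**
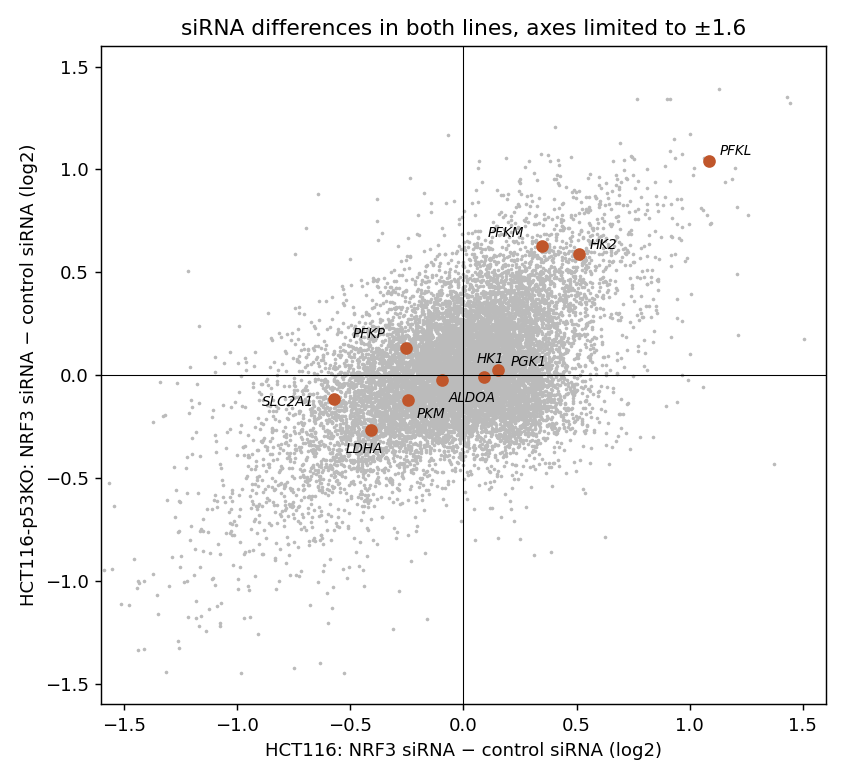
Log2 difference after NRF3 siRNA in HCT116 (horizontal axis) and in HCT116-p53KO (vertical axis) for all expressed genes (grey) and the 10 genes (orange), with axes limited to 1.6 either way. PFKL lies at 1.08 and 1.04, HK2 and PFKM lie above 0 in both, and the other 7 genes lie within 0.6 of 0 on both axes.

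In H1299, 1 of 10 genes was at least 1.5-fold higher with NRF3, SLC2A1, against 4.82% of expressed genes, and 0 of 10 were lower by that much, against 4.20%. SLC2A1, HK1, HK2 and LDHA were higher and the other 6 lower, with a median of -0.18 beside 0.00 over all expressed genes and a range from -0.45 to 0.74. The steps of entry and phosphorylation were on the higher side, and so was LDHA, the last step, by 0.25. The 3 phosphofructokinase genes, ALDOA, PGK1 and PKM were on the lower side. Nothing is read from these signs. Every difference but that of SLC2A1 was under 1.5-fold.

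Between the HCT116 lines, 1 of 10 genes was at least 1.5-fold lower in HCT116-p53KO with control siRNA, SLC2A1, against 3.45% of expressed genes, and 0 of 10 were higher, against 0.868%. With NRF3 siRNA it was again SLC2A1 alone, against 4.75% lower and 5.60% higher over all genes. The other 9 lay between -0.20 and 0.20 with control siRNA and between -0.29 and 0.33 with NRF3 siRNA. These pairs share arrays with the siRNA pairs, so the values are given side by side only. HCT116-p53KO is a single derived line, so the p53 loss and other differences of that line from HCT116 cannot be told apart.

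Levels in H1299 were set against the HCT116 lines only after quantile normalization had been repeated over all 6 arrays, a comparison chosen after seeing the data. On that scale SLC2A1 was at 10.11 in H1299 with GFP, at 12.35 in HCT116 and at 10.13 in HCT116-p53KO with control siRNA. H1299 and HCT116-p53KO thus differed by -0.02 in SLC2A1, and H1299 and HCT116 by -2.24. PFKL was higher in H1299 than in either line, by 0.63 and 0.71. LDHA (-0.98 and -1.13), HK1 (-1.29 and -1.09) and PFKP (-0.79 and -0.59) were lower than in both. Against HCT116, 1 of 10 genes was at least 1.5-fold higher, beside 21.2% of expressed genes, and 4 of 10 were lower by that much, beside 20.2%. Against HCT116-p53KO the counts were 1 and 3, beside 22.0% and 19.6%. With 10 genes and 1 array per group, nothing particular to the set is read from these counts.

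The genes whose pattern lay nearest to PFKL were sought over 4 differences, the 3 NRF3 comparisons and that between the control siRNA arrays, among 10137 genes at 6 or more on all 6 arrays. By Euclidean distance they were MTA1, a NuRD subunit (0.26), ATXN7L3B (0.29), TMEM141 (0.33), GYS1, the muscle form of glycogen synthase (0.35), and ZKSCAN1, a zinc finger gene (0.35). GYS1 was at 0.89 and 0.87 after siRNA and -0.48 in H1299. Those nearest to SLC2A1 were farther off: TGFBR2, a TGF-beta receptor (0.50), EPS8, an actin regulator (0.57), TSPAN14, a tetraspanin (0.80), DSC2, a desmosomal cadherin (0.83), and MET, the hepatocyte growth factor receptor (0.87). TGFBR2 was at -1.85 and EPS8 at -2.45 in HCT116-p53KO against HCT116 with control siRNA. Such likeness over 6 arrays is a description.

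Lists of neighbouring genes were counted in the same way, beside the shares of all expressed genes already given for each pair. Of 18 other glycolytic enzymes with a named probe set, 15 were expressed in the HCT116 siRNA pair and 13 in the HCT116-p53KO pair, and 0 of them differed by 1.5-fold either way in these pairs, where 2.71% and 3.63% of all expressed genes were higher by that much and 6.02% and 2.38% lower. With so few genes on the list a count of 0 is near that background. Their medians were 0.00 and -0.08. ENO2, the neuronal-type enolase, was the exception elsewhere: its levels were 8.34 and 8.17 in HCT116, 9.31 and 9.10 in HCT116-p53KO, and 8.08 and 7.28 in H1299. Both HCT116-p53KO arrays were thus higher, by 0.96 and 0.94, and the NRF3 array of H1299 lower, by 0.80. GAPDH, named after its values were seen, lay between 14.08 and 14.11 on the HCT116-family arrays and at 14.03 and 14.04 in H1299. The highest values of the arrays were 14.21 to 14.83, so GAPDH was near the top of the scale. Whether differences would show at that level was not tested.

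Among 14 other glucose transporters, 1 of the 11 expressed in HCT116 and 1 of the 12 expressed in HCT116-p53KO were 1.5-fold lower after siRNA. In both cases it was SLC2A12, at -0.72 and -0.75. Over all expressed genes 6.02% and 2.38% were lower by that much. The NRF3 siRNA levels of SLC2A12, 5.65 and 5.30, were under 6, so the size is uncertain. SLC2A3, the GLUT3 gene, was named after its values were seen: it was at 5.81 to 6.21 on the HCT116-family arrays and at 9.06 on both H1299 arrays.

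Genes that set the supply of fructose 2,6-bisphosphate, the activator of phosphofructokinase, stayed under 1.5-fold. The widest, named after their values were seen, fell just short of it. They were PFKFB4 after siRNA in HCT116 (-0.57) and PFKFB3 in H1299 (-0.56). PCK2, the mitochondrial PEP carboxykinase of the same list, was the 1 gene past 1.5-fold. PCK2 was at 7.44 and 8.38 in HCT116, at 7.60 and 7.97 in HCT116-p53KO and at 6.89 and 7.52 in H1299, so it was higher on the second array of each pair. In HCT116 and H1299 the list had 1 of 6 and 1 of 5 expressed genes at least 1.5-fold higher, beside 2.71% and 4.82% of all expressed genes. With so few genes, nothing about the list is read from 1 call. Of the lactate and pyruvate transport genes, 6 were expressed in each siRNA pair and 5 in H1299, and 0 differed by 1.5-fold in these comparisons. Over all expressed genes 2.71% were higher and 6.02% lower in HCT116, 3.63% and 2.38% in HCT116-p53KO, and 4.82% and 4.20% in H1299. SLC16A7, the monocarboxylate transporter MCT2, was lower in HCT116-p53KO than in HCT116, by 1.07 with control siRNA and 0.67 with NRF3 siRNA.

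Pyruvate dehydrogenase and its regulators held 1 gene each way in H1299, among 10 expressed, and none at 1.5-fold among 11 in the siRNA pairs. The shares of all expressed genes were 4.82% higher and 4.20% lower in H1299, 2.71% and 6.02% in HCT116, and 3.63% and 2.38% in HCT116-p53KO. PDHX, the E3-binding subunit, was higher with NRF3 by 0.69, and PDK2, a kinase that inactivates the complex, was lower by 0.65. PDK2 was lower after siRNA as well, by 0.55 and 0.53. PDK4, another such kinase, was lower in HCT116-p53KO by 0.58 with control siRNA and by 0.68 with NRF3 siRNA. Its levels there were 6.14 and 5.80, near or under 6, so the size is uncertain. The pentose phosphate list had 0 of 7 expressed genes at 1.5-fold in any of the 5 pairs. Shares over all expressed genes ran from 0.868% to 6.02% each way in those pairs, so a count of 0 is near background. H6PD (-0.58) and PGLS (-0.57) in H1299 and RPE (0.56 between the lines with NRF3 siRNA) were the widest of the list.

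The last list held the HIF pathway and hypoxia targets outside glycolysis. In HCT116, 2 of 19 were at least 1.5-fold higher after siRNA and 3 lower, and in HCT116-p53KO the counts were 2 and 3 again, with medians of -0.09 and -0.17. Over all expressed genes 2.71% were higher and 6.02% lower in the first pair, and 3.63% and 2.38% in the second. VHL, which marks HIF for degradation, was at 0.75 and 0.59, and ERO1A, an oxidase of the endoplasmic reticulum, at 0.73 and 0.69. ARNT, the HIF partner chain, was at -0.59 and -0.56, and the mitophagy receptors BNIP3 and BNIP3L were at -0.56 and -0.72 and at -0.58 and -1.03. The collagen prolyl hydroxylase gene P4HA1 was at -0.82 and -0.34, EGLN3, a HIF hydroxylase gene, at -0.72 and -0.30, and the stress-induced NDRG1 at 0.05 and -0.80. In H1299, 4 of 16 were at least 1.5-fold higher with NRF3 and 0 lower, beside 4.82% and 4.20% of all expressed genes, with a median of 0.29. Those 4 were BNIP3 (0.93), the peptide hormone gene ADM (0.81), VEGFA (0.75), an angiogenic growth factor, and EPAS1 (0.72), which encodes HIF-2 alpha. EPAS1 was at 5.38 with GFP and 6.11 with NRF3, so it was counted only through the array where it was higher, and its size is uncertain. Between the lines with control siRNA, BNIP3 was higher in HCT116-p53KO (0.68), and EGLN3 (-0.84), ADM (-0.83) and CA12 (-0.75), a carbonic anhydrase, were lower. With NRF3 siRNA, P4HA2, another collagen prolyl hydroxylase gene, was higher (0.59), and NDRG1 (-1.34) and ADM (-0.85) were lower. HIF1A itself, at 11.55, 11.13, 11.17 and 11.11 on the HCT116-family arrays and 9.62 and 9.74 on the H1299 arrays, was named after its values were seen. Whether HIF activity had a part in the differences of SLC2A1 or LDHA was not tested.

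**Figure D4:**
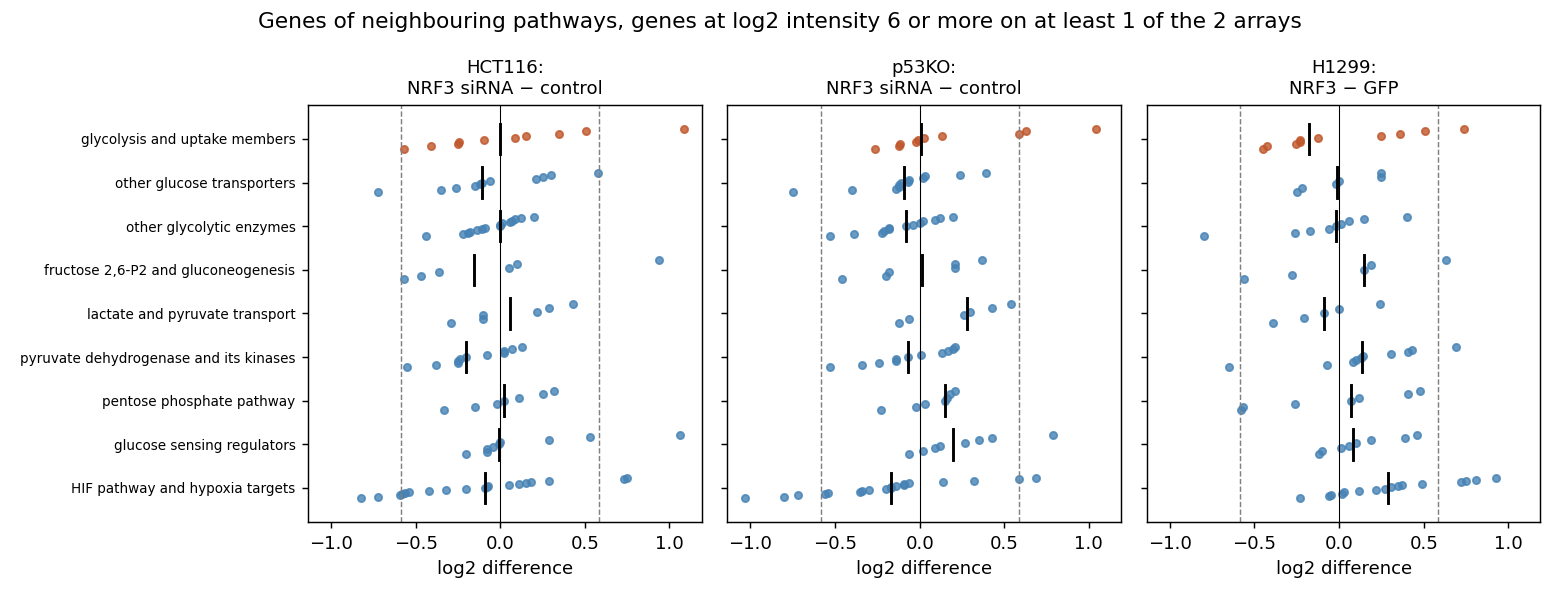
Log2 difference (horizontal axis) of the 10 genes (orange) and of expressed genes of 8 neighbouring pathway lists (blue) in the 3 NRF3 comparisons, with black bars for list medians and dashed lines at 1.5-fold. The HIF list has its median at -0.09 and -0.17 after siRNA and at 0.29 in H1299, and other lists lie with medians between -0.20 and 0.28.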

How the data were processed

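Total RNA of 6 groups was hybridised to Affymetrix arrays, 1 array each. The authors deposited 33297 probe sets as log2 intensities; per the submitters' processing notes these came from Affymetrix Expression Console by RMA, with no version named. The grouping of arrays for RMA was not given in the sources used here. Of the probe sets, 19460 carried 1 gene symbol in the platform annotation, 1754 several and 12083 were not listed there. Genes with several probe sets (769) were taken at the one of highest mean, giving 18417 genes, and all 10 members matched RefSeq by Entrez number.

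Differences of log2 values were taken in 5 pairs of arrays and counted at 1.5-fold among genes at 6 or more on at least 1 array of the pair. No test, limma fit or p-value was used, since there is 1 array per group, and the siRNA and line contrasts, which 4 arrays could test only weakly, chose the members. The number of arrays limits the precision. The members and lists were chosen with earlier results of these data known. Named were the members, list genes past 1.5-fold in any pair (otherwise up to 3 with the largest difference), NFE2L3, and the 5 genes nearest in pattern to PFKL and to SLC2A1. Alternatives were quantile normalization repeated over 6 arrays or within each set, loess correction (span 0.4), averaging of probe sets per gene, thresholds of 2-fold and of 0.32 (log2), and filters of none or 7. A comparison of H1299 with the HCT116 lines after repeated normalization was added after seeing the data. The counting, loess and quantile steps were tested on simulated data with Python 3.11.15 and statsmodels 0.14.6. Some list genes are not analysed here.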

Additional observations from a re-analysis of the deposited data

How the results depend on the processing

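No pairing of replicates was possible because the labels carry no replicate numbers to use as a block and each group has 1 array. An additive fit of line and siRNA over the 4 HCT116-family arrays, with line as the block, was possible. It was not run, since those contrasts chose the genes. PFKL and SLC2A1 kept their side of 1.5-fold under every normalization, loess and probe set alternative except SLC2A1 in the HCT116 siRNA pair, at -0.52 to -0.59. PFKL ranged from 1.08 to 1.17 in HCT116 and from 0.98 to 1.04 in HCT116-p53KO, and SLC2A1 from -2.22 to -2.10 between the control siRNA arrays. Counts of genes at 1.5-fold moved as follows. In HCT116 the count of 1 became 3 with quantile normalization repeated over 6 arrays, which added HK2 and SLC2A1, and 2 when it was repeated within each set, which added HK2. At a looser threshold of 0.32 on the log2 scale it was 5. In HCT116-p53KO the count of 3 became 2 under both repeats, without HK2, and 1, PFKL, with loess correction and at 2-fold. In H1299 the count of 1 became 0 at 2-fold and 5 at the looser threshold, and between the lines with NRF3 siRNA the count of 1 became 2 at the looser threshold, which added LDHA. The median of the 10 genes between the lines with NRF3 siRNA moved from 0.09 to -0.03 with loess correction. No called gene changed sign under these alternatives, and signs that changed were of differences of 0.13 or less. Averaging probe sets changed no member, since each had 1. The cause of the moves was not tested.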

Other observations

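Among regulators that sense or signal glucose supply, PRKAA2, the alpha 2 catalytic chain of AMP-activated kinase, was at 7.19 on both HCT116 arrays and at 5.16 and 4.80 on the HCT116-p53KO arrays, and at 8.46 and 8.47 in H1299. The HCT116 lines differed by -2.03 under control siRNA and by -2.39 under NRF3 siRNA, uncertain in size with arrays under 6. PRKAA1, the alpha 1 chain, was higher in HCT116-p53KO by 0.31 and 0.61. ARRDC4, an arrestin-fold gene that limits glucose uptake, was at 6.93 and 7.99 in HCT116 with control and NRF3 siRNA, a difference of 1.06, and at 6.40 and 6.35 in HCT116-p53KO. AKT1, a kinase of insulin signalling, was higher after NRF3 siRNA in both lines, by 0.53 and 0.79. At 1.5-fold, 1 of 9 expressed genes of this list was higher after siRNA in HCT116 (ARRDC4), beside 2.71% of all expressed genes, and 1 of 8 in HCT116-p53KO (AKT1), beside 3.63%. None was lower by that much in these pairs, beside 6.02% and 2.38%, and 0 of 8 were past it in H1299, beside 4.82% higher and 4.20% lower. SLC2A3, the GLUT3 gene, was 3.83 higher in H1299 with GFP than in HCT116 and 3.81 higher than in HCT116-p53KO, both with control siRNA, after quantile normalization repeated over 6 arrays. These differences were not tested.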
